A study of Sus scrofa with 6 samples.

Results

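The interferon-induced antiviral effectors described here are ISG15, RSAD2, MX1, MX2, OAS1, IFIT1, IFIT2, IFIT3 and USP18, followed in backfat of castrated and intact male pigs. The members were all probe sets whose single gene symbol in the platform annotation was one of 10 chosen names. Of these names 9 had a probe set, and IFI44 was not analysed here. They were represented by 14 of the 23999 probe sets outside the array controls, or 9 of 6765 named genes, and 13 of the 14 were bright enough to be tested. RSAD2 was also represented by 3 control probe sets, which were kept apart as a side check. The study asked how castration changes gene expression in subcutaneous fat. Barrows, castrated surgically at 7 days of age, were compared with boars, their intact full brothers, all from Pietrain sires and Landrace dams. All were weaned at 30 days, had free access to feed and water and were killed at 175 days. The 15 sib pairs gave 30 pigs, and each of the 6 Affymetrix porcine arrays measured an equal mixture of RNA from the middle backfat layer at the 6th rib of 5 pigs of a kind. There were thus 3 barrow pools and 3 boar pools, the labels name no other treatment, so p-values rest on the spread of pools and not of single pigs.

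Interferons are cytokines released by cells that sense foreign or misplaced nucleic acid. Type I interferon binds its receptor on nearby cells, and the kinases JAK1 and TYK2 then activate transcription factors such as STAT2, which together with IRF9 switches on a large set of interferon-induced genes. The products of these genes block virus entry, replication, translation and assembly, and several of them, USP18 among them, limit the signal itself. The roles given below are known mainly from human and mouse cells. In fat, adipocytes, macrophages and endothelial cells can all respond, and in a bulk sample more responding cells cannot be told apart from more RNA per cell.

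Values are MAS5 signals on a linear scale, and differences are barrow minus boar on log2(signal + 16), which understates changes of dim probe sets. A probe set was called risen or fallen at an adjusted p under 0.05 (limma with Benjamini-Hochberg adjustment over 14399 tested probe sets). Over all tested probe sets, log2 signals of 2 arrays had a Pearson r of 0.978 to 0.988 inside a group and of 0.975 to 0.983 across groups. The tissue label fitted its markers: all 6 adipocyte markers with a probe set were tested, with a summed signal of 56520 to 64950 in barrow pools and 61020 to 67080 in boar pools. The log2 3'/5' signal ratio of the actin controls measures RNA integrity and rises as RNA degrades. It was 1.85 to 2.13 in barrow pools and 1.99 to 2.13 in boar pools. Barrow pool 2 had the lowest actin ratio, 1.85, and the lowest GAPDH ratio, 1.09, where the other 5 pools had GAPDH ratios of 1.25 to 1.44.

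In barrow fat 5 of the 9 antiviral effector genes rose relative to boar fat, and the other 4 did not pass the threshold. Of the 13 tested probe sets 5 rose, those of ISG15, RSAD2, MX1, OAS1 and IFIT3, against 0.701% of all tested probe sets. None fell, against 0.458% of all tested probe sets, and those called in either direction made up 1.16%. At an unadjusted p under 0.05 (limma) 10 of the 13 were higher in barrows and none was lower. Of all 14399 tested probe sets 1753 passed that level in either direction. All 13 differences were above 0, with a median of 0.44, against -0.01 over all tested probe sets. In 8 of the 13 every barrow pool lay above every boar pool, against 8.38% of all tested probe sets. IFIT1 and IFIT2 had 3 probe sets each among the 13, so these are not counts of separate genes. With the replicate number as a block the count of risen probe sets was also 5, against 1.49% of all probe sets. The count was 3 without barrow pool 1 or barrow pool 3, and 2 without boar pool 1 or boar pool 3. It was 4 without barrow pool 2 or boar pool 2. The members were chosen with earlier results of these data known. Setting their counts against the shares over all probe sets is therefore a description and no test.

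**Figure D1:**
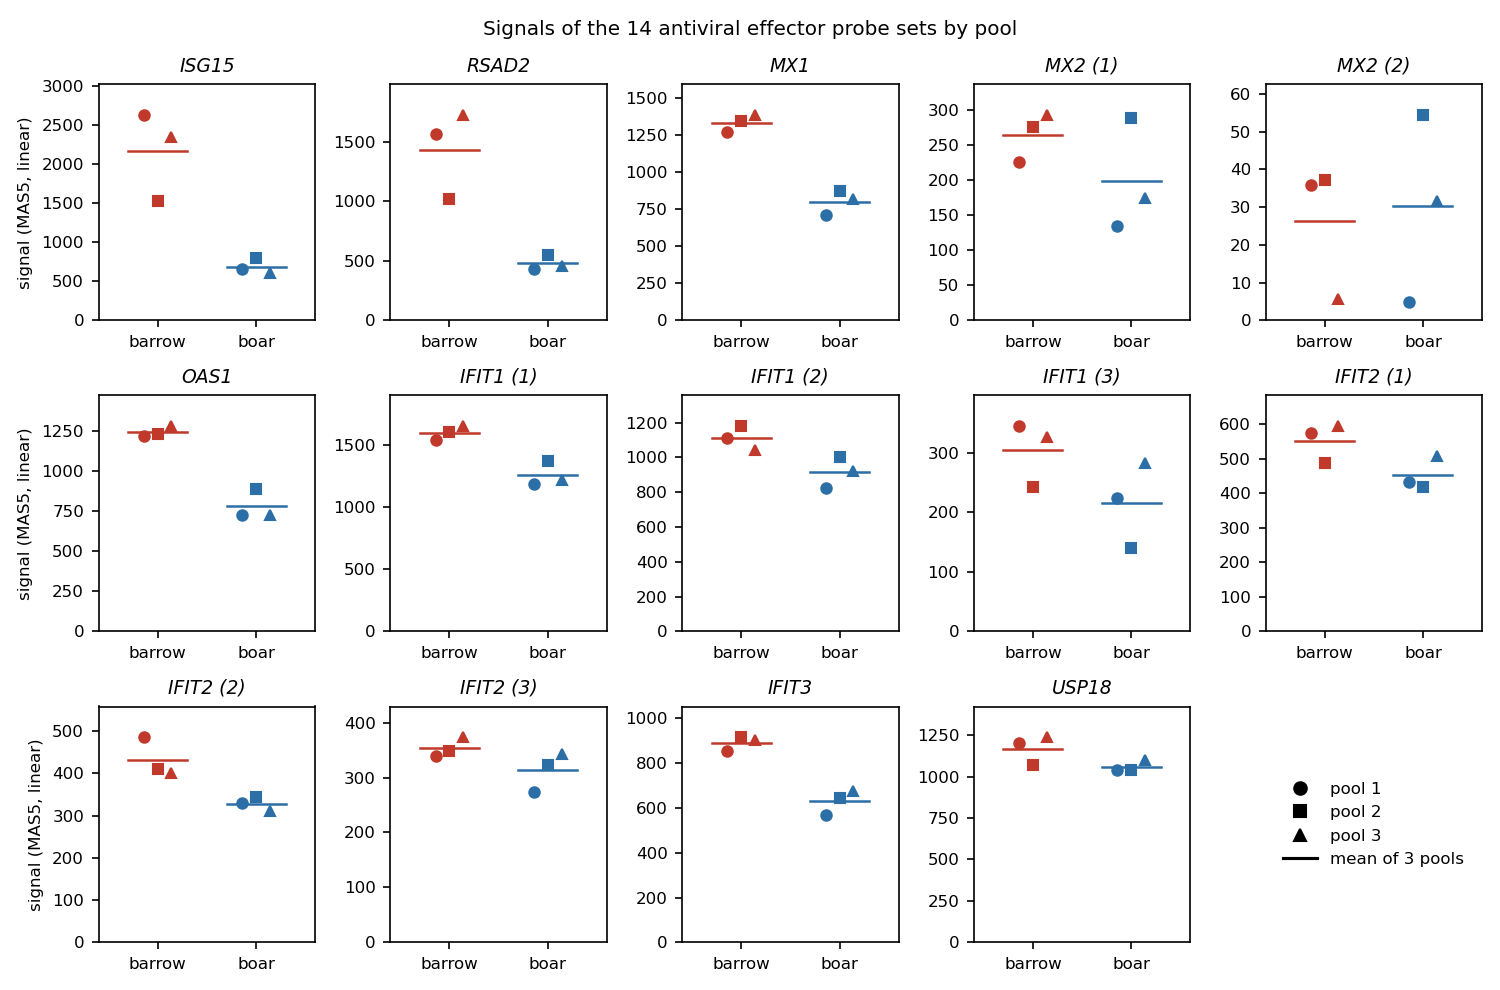
MAS5 signal (linear axis from 0, a scale of its own in each panel) of each of the 14 probe sets in 3 barrow pools (red, left) and 3 boar pools (blue, right), with a bar at the mean of 3 pools; numbers in brackets order the probe sets of a gene from bright to dim. The panels of ISG15, RSAD2, MX1, OAS1 and IFIT3 show no overlap between the groups, while the second MX2 probe set, with signals of 4.76 to 54.4, was too dim to be tested.

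ISG15 encodes a small ubiquitin-like protein that is attached to other proteins and is also secreted. Its signals were 2623, 1533 and 2344 in barrow pools 1, 2 and 3, against 654, 797 and 604 in boar pools. Every barrow pool lay above every boar pool, and barrow pool 2 was the lowest of its group. The means were 2167 ± 566 in barrows and 685 ± 100 in boars (SD, n = 3 each), a 3.06-fold difference (95% CI 2.32 to 4.03, limma adjusted p = 0.0027). ISG15 had the 4th largest upward difference among the tested probe sets. Its call held in all 14 alternative fits, with adjusted p from 1.0e-04 to 0.045.

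RSAD2 encodes viperin, a radical SAM enzyme that makes a nucleotide able to end viral RNA synthesis. Its signals were 1562, 1016 and 1723 in barrow pools, against 431, 546 and 460 in boar pools. The groups did not overlap, and barrow pool 2 was again the lowest barrow pool. The difference was 2.87-fold (95% CI 2.19 to 3.77, limma adjusted p = 0.0032), the 5th largest upward difference. This call also held in all 14 alternative fits, with adjusted p up to 0.045. Barrow pool 2 was also the pool with the lowest 3'/5' ratios of actin and GAPDH, the side of less degraded RNA. The part of RNA integrity in its lower ISG15 and RSAD2 signals was not tested. Without barrow pool 2 both genes had an adjusted p of 1.8e-04 (limma).

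The 3 control probe sets of RSAD2, which target the 5' part, the middle and the 3' part of the transcript of the main probe set, gave the same direction. The 3' set had 327, 191 and 329 in barrow pools, against 79.4, 71.3 and 77.3 in boar pools. The 5' set had 185, 138 and 147 in barrow pools, against 32.6, 87.6 and 111 in boar pools. The middle set had 99.9, 94.3 and 99.2 in barrow pools, against 39.8, 42.4 and 52.0 in boar pools. None of the 3 overlapped between the groups, and barrow pool 2 was the lowest barrow pool in each of them. The log2 differences were 1.66, 0.99 and 0.91 for the 3', 5' and middle sets, each with an exact permutation p of 0.1 (2-sided), the smallest that 3 against 3 pools allow. These sets are dim and share the transcript and the arrays with the main probe set, so they are not separate evidence.

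**Figure D2:**
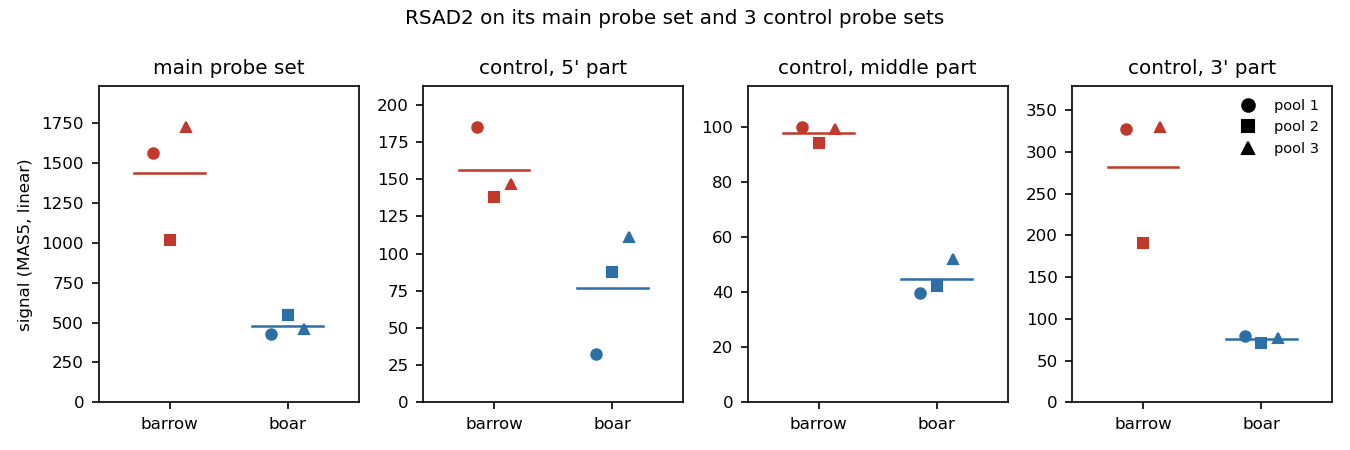
MAS5 signal (linear axis from 0, a scale of its own in each panel) of RSAD2 on its main probe set and on the 3 control probe sets, in barrow pools (red, left) and boar pools (blue, right), with a bar at the mean of 3 pools. On all 4 the barrow pools lie above the boar pools, with log2 differences of 1.52 on the main set and 0.91 to 1.66 on the controls.

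MX1 and MX2 are dynamin-like GTPases that trap incoming virus particles, and in the RefSeq pig assembly Sscrofa11.1 a single uncharacterised locus separates their genes. MX1 had signals of 1266, 1341 and 1381 in barrow pools, against 706, 874 and 818 in boar pools. The barrow pools lay close together and above every boar pool, a 1.66-fold difference (95% CI 1.42 to 1.93, limma adjusted p = 0.0087). The MX1 call was lost without boar pool 1 (adjusted p = 0.065), without boar pool 3 (adjusted p = 0.055) and without the intensity trend (adjusted p = 0.065). The brighter MX2 probe set had 226, 276 and 293 in barrow pools, against 134, 289 and 174 in boar pools. Boar pool 2 reached the barrow level, and the log2 difference of 0.44 (95% CI -0.08 to 0.96, limma adjusted p = 0.50) did not pass the threshold. The interval includes 0 and also a difference as large as that of MX1. The dimmer MX2 probe set, designed on the same sequence record, had 35.9, 37.2 and 5.76 in barrow pools, against 4.76, 54.4 and 31.6 in boar pools. It fell under the filter and gives no order of the groups.

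OAS1 makes the oligoadenylates that switch on the RNA-degrading enzyme RNase L. Its signals were 1217, 1232 and 1280 in barrow pools, against 728, 886 and 726 in boar pools. The barrow pools differed little among themselves, and boar pool 2 was the highest boar pool but lay below all of them. OAS1 rose 1.59-fold (95% CI 1.36 to 1.85, limma adjusted p = 0.012). The OAS1 call was lost in 5 of the 14 alternative fits, without barrow pool 1, barrow pool 3, boar pool 1 or boar pool 3 (adjusted p = 0.057, 0.058, 0.094 and 0.077) and without the intensity trend (adjusted p = 0.079).

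The IFIT proteins bind viral RNA or the translation machinery, and IFIT3 acts as a partner that stabilises IFIT1. In the Sscrofa11.1 assembly IFIT2, IFIT3 and IFIT1 are direct neighbours in that order. Whether probes cross-hybridise between these related genes, or between MX1 and MX2, was not tested. IFIT3 had signals of 852, 914 and 903 in barrow pools, against 567, 643 and 676 in boar pools. The groups did not overlap, and IFIT3 rose 1.41-fold (95% CI 1.21 to 1.64, limma adjusted p = 0.046). This was the least stable of the 5 calls: it was lost when any of the 6 pools was left out (adjusted p from 0.057 without barrow pool 2 to 0.25 without boar pool 1), without a filter (adjusted p = 0.068) and without the intensity trend (adjusted p = 0.13).

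IFIT1 was measured by 3 probe sets, and none passed the threshold. The brightest had 1541, 1605 and 1653 in barrow pools, against 1190, 1370 and 1218 in boar pools. The groups did not overlap, and the log2 difference was 0.34 (95% CI 0.15 to 0.54, limma adjusted p = 0.10, and 0.043 with array weights). The middle probe set had 1114, 1179 and 1044 in barrow pools, against 824, 1003 and 919 in boar pools, again with no overlap and a log2 difference of 0.28 (limma adjusted p = 0.28). The dimmest had 344, 243 and 327 in barrow pools, against 223, 140 and 283 in boar pools, with a log2 difference of 0.51 (limma adjusted p = 0.41). Here boar pool 3 exceeded barrow pool 2, and boar pool 2 was the lowest boar pool, whereas it was the highest on the other IFIT1 probe sets. The dimmest set thus disagreed with the others on the order of pools within a group.

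IFIT2 was also measured by 3 probe sets, with log2 differences of 0.27, 0.38 and 0.17 from bright to dim (limma adjusted p = 0.40, 0.21 and 0.65). The brightest had 575, 486 and 593 in barrow pools, against 432, 419 and 508 in boar pools, so that boar pool 3 lay above barrow pool 2. The middle one had 485, 409 and 401 in barrow pools, against 329, 343 and 311 in boar pools, without overlap. The dimmest had 339, 349 and 373 in barrow pools, against 273, 323 and 343 in boar pools, where boar pool 3 lay just above barrow pool 1. For this gene only the middle probe set separated the groups.

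USP18 is the protease that removes ISG15 from proteins and also binds the interferon receptor to restrain it. Its signals were 1202, 1068 and 1237 in barrow pools, against 1039, 1040 and 1098 in boar pools. Boar pool 3 lay above barrow pool 2, and the log2 difference of 0.14 (95% CI -0.06 to 0.34, limma adjusted p = 0.60) was the smallest of the 13. The upper end of that interval lies below the lower end of the ISG15 interval, 1.22.

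**Figure D3:**
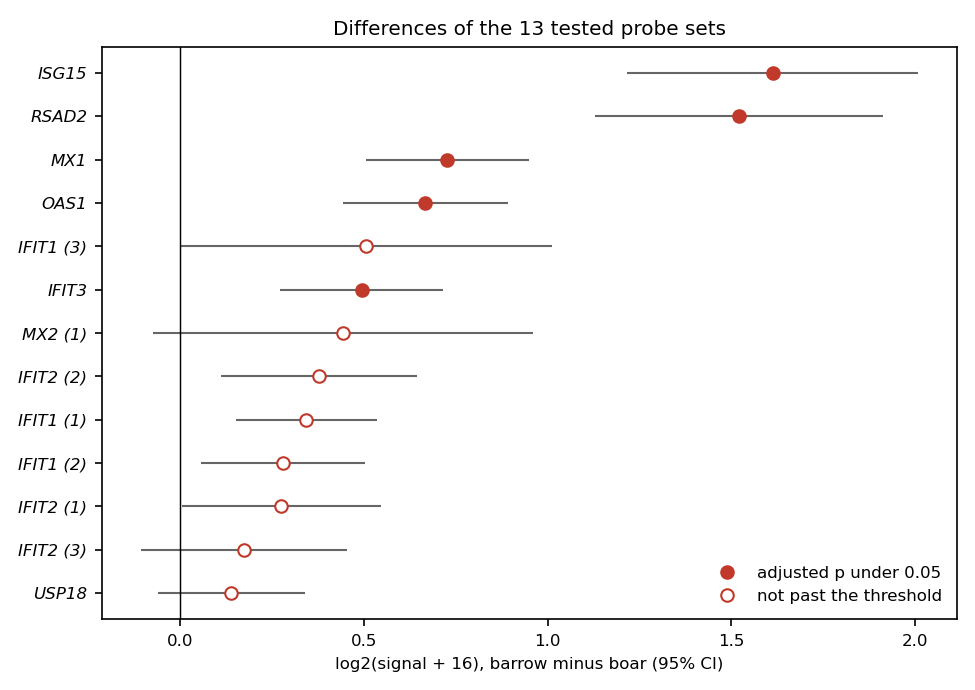
Log2(signal + 16) difference, barrow minus boar, with its 95% confidence interval (limma) for the 13 tested probe sets of the 9 genes, ordered by size; filled points passed an adjusted p of 0.05 and open points did not. ISG15 at 1.61 and RSAD2 at 1.52 stand at the top, MX1 and OAS1 follow at 0.73 and 0.67, and USP18 at 0.14 stands at the bottom.

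The sizes of the differences were compared between effectors. Within each array the log2 value of a gene was set against that of another. The change of that contrast between the groups was tested for 9 pairs by an exact permutation test (2-sided). Its p cannot go below 0.1 here, before or after adjustment over the 9, so no contrast could pass the threshold. The contrast of ISG15 with USP18 was 1.12, 0.52 and 0.91 in barrow pools, against -0.65, -0.38 and -0.85 in boar pools, a change of 1.47 without overlap (exact p = 0.1). Against MX1, ISG15 had 1.04, 0.19 and 0.76 in barrow pools and -0.11, -0.13 and -0.43 in boar pools, a change of 0.89 (exact p = 0.1). The change of ISG15 against OAS1 was 0.95 and that of RSAD2 against MX1 0.80 (exact p = 0.1 each). In these 4 contrasts the groups did not overlap, but none passed after adjustment (adjusted p = 0.225). RSAD2 against ISG15 changed by -0.09 and MX1 against OAS1 by 0.06, both with overlap (exact p = 0.4 each). MX1 against MX2 changed by 0.29 (exact p = 0.4), IFIT3 against IFIT1 by 0.15 and IFIT3 against IFIT2 by 0.22 (exact p = 0.3 each), also with overlap.

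The pools of a group differed from each other in ways the genes partly shared. After removing the group means, ISG15 deviated by 0.31, -0.46 and 0.15 in barrow pools and by -0.06, 0.22 and -0.17 in boar pools. RSAD2 deviated by 0.16, -0.46 and 0.30 in barrow pools and by -0.14, 0.19 and -0.05 in boar pools. Both were lowest in barrow pool 2 and highest in boar pool 2 of their group, and their deviations correlated at 0.92 over the 6 arrays. MX1, OAS1 and the brightest probe sets of MX2 and IFIT1 had their largest deviations in boars, all 4 highest in boar pool 2, and the deviations of OAS1 and IFIT1 correlated at 0.96 and those of MX1 and MX2 at 0.93. ISG15 and MX1 correlated at 0.09. These correlations describe 6 arrays whose group means were removed, and genes on an array share its RNA pool and hybridisation.

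The other genes of the pathway were taken from lists of interferons, receptors, signalling proteins, sensors and further induced genes, with the brightest tested probe set standing for a gene. Of 45 tested genes outside the effectors 6 rose, against 0.971% of 5356 genes, and 0 fell, against 0.541% (limma). At an unadjusted p under 0.05 (limma) 10 of the 45 were higher in barrows and 0 lower. That level was passed by 1753 of all 14399 tested probe sets in either direction. With the replicate block 6 rose as well, against 2.13% of genes. Their median log2 difference was 0.02, against 0.49 for the 9 effectors and -0.01 for all genes. The 6 did not hold when single pools were left out: 0 rose without barrow pool 1, boar pool 1 or boar pool 3 (8, 9 and 9 had an unadjusted p under 0.05 upward), and 1 rose without barrow pool 3. The count was 6 without barrow pool 2 and 4 without boar pool 2. These lists were also chosen with earlier results of these data known, so the counts beside the shares of all genes are a description.

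Interferon genes themselves gave dim signals. Of 4 with a probe set only IFNA1 was tested, with signals of 155, 151 and 119 in barrow pools, against 164, 141 and 97.5 in boar pools (log2 difference 0.09, limma adjusted p = 0.92). IFNB1 had signals of 1.76 to 5.98 in barrow pools and 1.22 to 18.2 in boar pools, and IFNG 11.2 to 43.2 in barrow pools and 30.6 to 46.8 in boar pools. IFN-DELTA-1, also under the filter, had 32.7 to 110 in barrow pools and 63.5 to 91.9 in boar pools. The groups overlapped in all 4 genes, and these values do not show whether the genes were expressed.

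The receptors and the signalling proteins gave no call. For 4 tested receptor chains the log2 differences ran from -0.13 to 0.06 (limma, 0 called and 0 at an unadjusted p under 0.05). The interferon gamma receptor chain IFNGR1 had -0.13, the type I receptor chain IFNAR1 -0.12 and the shared chain IL10RB 0.06 (limma adjusted p = 0.58, 0.74 and 0.89). For 6 tested JAK and STAT pathway genes the range was -0.11 to 0.20 (limma, 0 called and 0 at an unadjusted p under 0.05). IRF9, the DNA-binding partner of STAT2, had 0.20, with a mean of 530 ± 46.1 in barrows and 459 ± 42.2 in boars (SD, n = 3 each, limma adjusted p = 0.54). TYK2 and STAT3 had -0.11 and -0.10 (limma adjusted p = 0.69 and 0.70). The inhibitors PTPN2 and PIAS1 had 0.06 and 0.02 (limma adjusted p = 0.87 and 0.96). The enzymes that attach ISG15 and the other oligoadenylate synthetases were not analysed here.

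Sensors and further induced genes held all 6 calls among the listed genes. A probe set annotated ISG12(A), a symbol not on the lists and named here after its value was seen, also rose, by 0.70 on the log2 scale (limma adjusted p = 0.0095). Of 9 tested sensors, adaptors and interferon regulatory factors 2 rose, and the median was 0.00. DDX58, the RNA sensor RIG-I, rose by 0.76 on the log2 scale (limma adjusted p = 0.0095) and the nucleic acid sensor ZBP1 by 0.87 (limma adjusted p = 0.025). IRF7, the factor that amplifies interferon production, had 222, 215 and 191 in barrow pools, against 104, 134 and 112 in boar pools, without overlap but with an adjusted p of 0.055 (limma). Of 15 tested further interferon-induced genes 4 rose, and the median was 0.24. IFI44L, the neighbour of IFI44, had 2688, 2492 and 2709 in barrow pools, against 1879, 1905 and 1894 in boar pools. It rose 1.39-fold (95% CI 1.24 to 1.55, limma adjusted p = 0.014), while its other probe sets had log2 differences of 0.29 and 0.40 (limma adjusted p = 0.42 and 0.49). EIF2AK2, the kinase PKR that stops translation, rose by 0.58 on the log2 scale and XAF1, a promoter of cell death, by 0.77 (limma adjusted p = 0.026 and 0.023). PARP12, an ADP-ribosyltransferase named here after its value was seen because it completes the 4, rose 1.40-fold (limma adjusted p = 0.046).

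Genes typical of the interferon gamma response showed no call. Of 8 tested 0 rose and 0 fell (limma, with 0 at an unadjusted p under 0.05), and their median log2 difference was -0.13. The chemokine CXCL9 averaged 1015 ± 141 in barrows and 1319 ± 446 in boars (SD, n = 3 each, log2 difference -0.32, limma adjusted p = 0.61). The immunoproteasome subunit PSMB8 had -0.21 and the tryptophanyl-tRNA synthetase WARS -0.18 (limma adjusted p = 0.62 and 0.50). Whether this list differed from the effectors was not tested as a list.

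**Figure D4:**
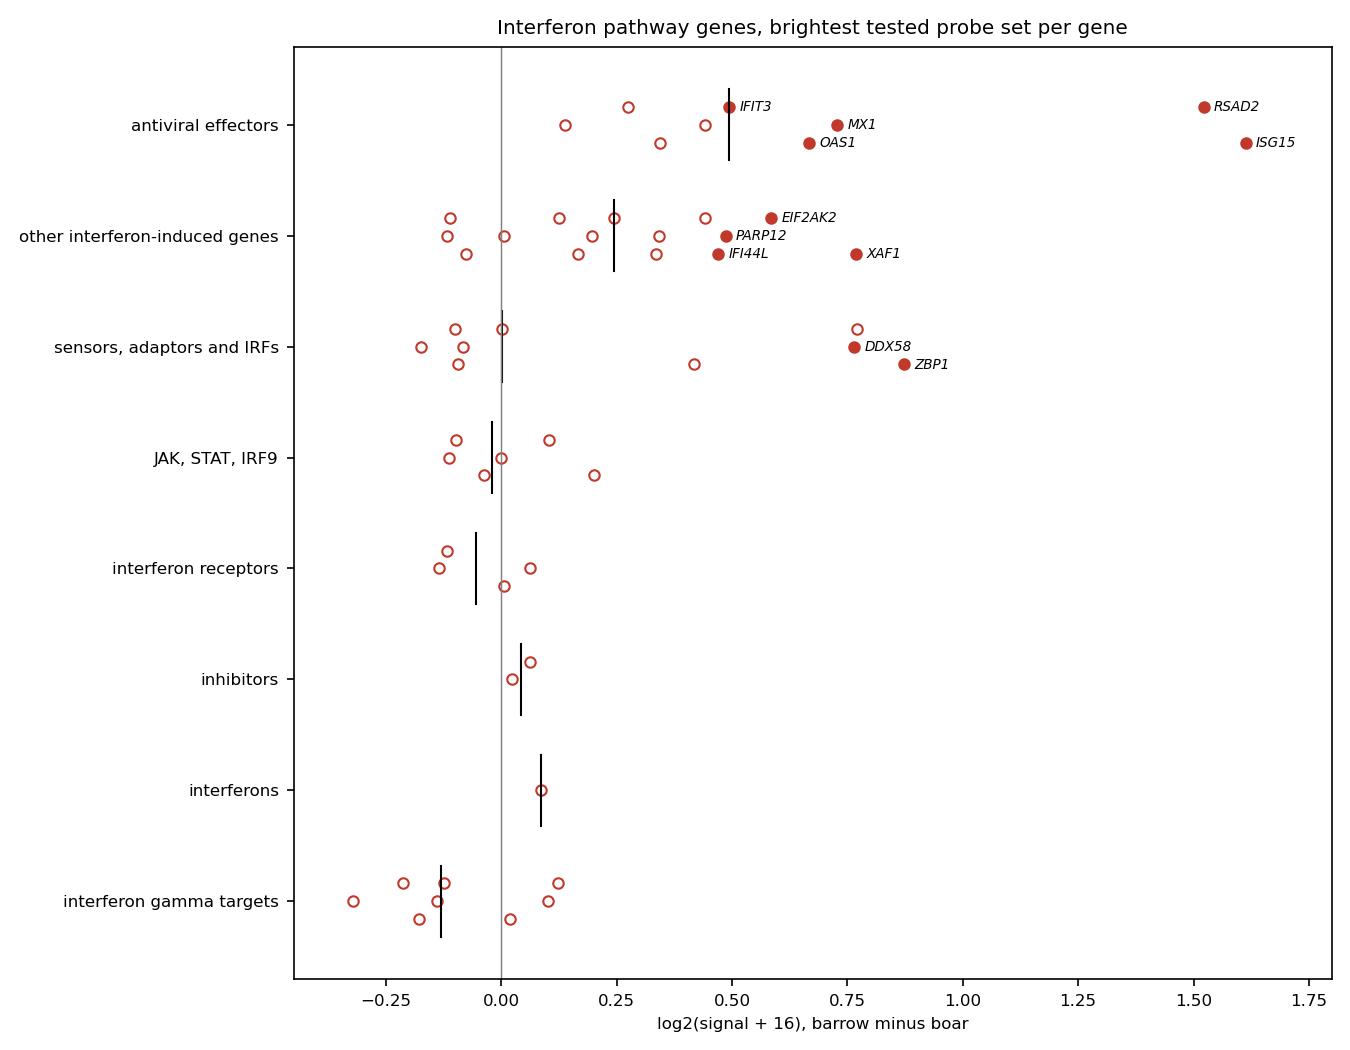
Log2(signal + 16) difference, barrow minus boar, for the 9 effectors and 45 other interferon pathway genes grouped by role, with the brightest tested probe set for each gene; filled, named points passed an adjusted p of 0.05 (limma) and black bars mark the median of each group. The effectors, the further induced genes and the sensors hold all filled points, while receptors, JAK and STAT genes and interferon gamma targets lie between -0.32 and 0.20.

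Markers of cells that could carry an interferon response were read beside these results. Of 6 plasmacytoid dendritic cell markers, the cells known as strong interferon producers, 3 had a probe set and 1 was tested. PLAC8, also made by other leukocytes, rose by 0.86 on the log2 scale (limma adjusted p = 0.034), with signals of 756, 488 and 674 in barrow pools, against 382, 309 and 329 in boar pools. The list's summed signal was 518 to 777 in barrow pools and 335 to 402 in boar pools, but SPIB had at most 13.2 in barrow pools and 9.89 in boar pools, near 0. CD4, also on that list, had at most 24.9 in barrow pools and 15.8 in boar pools. Of 7 tested macrophage markers 0 rose and 0 fell (limma, with 0 at an unadjusted p under 0.05 upward and 3 downward, and 1 fallen with the replicate block), with summed signals of 7818 to 9214 in barrow pools and 8172 to 10600 in boar pools. By the brightest tested probe set of each gene, the 3 with the smallest p were C1QA at -0.44, TYROBP at -0.39 and AIF1 at -0.33 (limma adjusted p = 0.13, 0.14 and 0.27). C1QA fell with the replicate block (limma adjusted p = 0.035). CD163 entered by a probe set at 0.15 (limma adjusted p = 0.69), while its other tested probe set had -0.70 (limma adjusted p = 0.094). That dimmer CD163 set had signals of 112 to 155 in barrow pools, against 204 to 260 in boar pools.

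Lymphocyte markers had 3 tested genes of 8 with a probe set and 0 calls (limma, 0 at an unadjusted p under 0.05), with CD3E at -0.30, CD8A at -0.24 and CD2 at -0.13. Their summed signals were 613 to 662 in barrow pools and 581 to 902 in boar pools. The neutrophil marker S100A9 had 0.21 (limma adjusted p = 0.64), and summed signals of that list were 316 to 386 in barrow pools and 268 to 311 in boar pools. Endothelial markers summed to 13500 to 13880 in barrow pools and 15020 to 15750 in boar pools. Of 7 tested 1 fell, the angiopoietin receptor TEK at -0.47 (limma adjusted p = 0.047), with CLDN5 at -0.45 and PECAM1 at -0.14 (limma adjusted p = 0.17 and 0.41). The TEK call held in 8 of 14 alternative fits. Another tested TEK probe set had -0.20, with overlap between the groups (limma adjusted p = 0.73). Fibroblast markers summed to 24160 to 33660 in barrow pools and 28180 to 33840 in boar pools, with 0 of 4 called (limma, 1 at an unadjusted p under 0.05, and 1 fallen with the replicate block). That gene was DPT at -0.32 (limma adjusted p = 0.060, and 0.041 with the block), while LUM had 0.10 and DCN -0.03. Among the 6 adipocyte markers leptin, LEP, rose by 0.58 (limma adjusted p = 0.021), with FABP4 at -0.11 and LIPE at 0.13. The part of cell composition in the effector differences was not tested.

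Outside the effectors, 6 named genes followed the mean effector profile most closely over the 6 arrays, by Pearson's r. They were NDEL1, a dynein regulator (0.998), ISLR, a secreted protein of stromal cells (0.996), DKK3, a secreted member of the dickkopf family (0.995), ME1, malic enzyme (0.994), C1QTNF3, of the adiponectin family (0.990), and APOE, apolipoprotein E (0.989). None is on the interferon lists. ISLR had 1546, 1346 and 1584 in barrow pools, against 923, 1016 and 973 in boar pools (limma adjusted p = 0.013). NDEL1 had 1531, 1461 and 1584 in barrow pools, against 1143, 1260 and 1217 in boar pools (limma adjusted p = 0.097). These r values largely reflect the step between the groups, and with the group means removed they were 0.85 to 0.98. They were picked as the highest among many probe sets and are given as a description without a test.

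**Figure D5:**
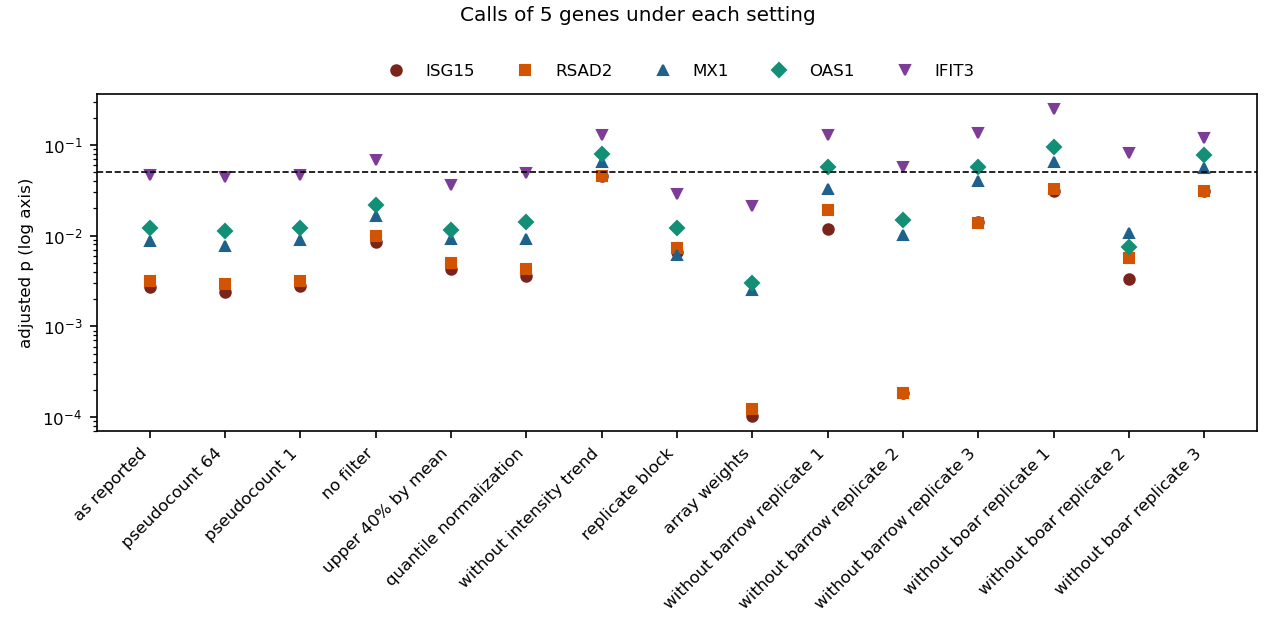
Adjusted p (log axis) of the 5 called genes as reported and in each of the 14 alternative fits, with a dashed line at 0.05. ISG15 and RSAD2 stay below the line throughout, MX1 crosses it in 3 fits, OAS1 in 5 and IFIT3 in 8.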

How the data were processed

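RNA of 6 pools of pig backfat (3 barrow, 3 boar) had been hybridised to 6 Affymetrix porcine arrays. The deposited table holds 1 intensity per probe set and array, made with MAS5 per the submitters' processing notes, which name neither a version nor settings. The 2% trimmed mean was 500.09 to 500.1 on every array, as tested on the values, so the deposited intensities appear globally scaled. Median signals were 162 to 173. Detection calls were not used, and precision is limited by the number of arrays. Gene symbols came from the platform annotation (10099 of 24123 probe sets with 1 symbol, 198 with several, 13826 with none). Gene identifiers of all 9 effectors were found in the RefSeq table (Sscrofa11.1). No coordinates are printed, since the array files name no build.

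After removal of 124 control probe sets, values were transformed to log2(signal + 16), and the upper 60% by mean over all arrays, a mean log2 of at least 6.76, entered the fit. The contrast barrow minus boar was fitted with limma 3.58.1 under R 4.3.3 (lmFit, eBayes with an intensity trend, 2-sided, Benjamini-Hochberg adjustment, threshold 0.05). The procedure was tested on simulated data. The members and gene lists were chosen with earlier results of these data known. Named genes were all members, the 3 lowest unadjusted p-values of each list, and the 6 most similar genes. PARP12 and ISG12(A) were named outside this rule, after their values were seen. Pools of the same replicate number, taken from the sample titles, had residuals correlated at 0.12, 0.17 and 0.26, all above 0.1. The titles do not state that these numbers pair the pools, so the replicate block was an alternative fit only. The fit is given without a block, with the blocked value where it changes a call. Alternatives were other pseudocounts, filters and scaling, no intensity trend, array weights, the replicate block and leaving out each pool.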

Additional observations from a re-analysis of the deposited data

How the results depend on the processing

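The 13 effector differences kept their sign in every alternative fit in which they were tested, and of these 180 values 16 lost and 1 gained a call. Only the 5 called probe sets could lose a call. Of 14 alternative fits each, ISG15 and RSAD2 were called in 14, MX1 in 11, OAS1 in 9 and IFIT3 in 6. Effectors risen numbered 2 without the intensity trend, against 5 as reported, and 2 to 4 when single pools were left out (7 to 11 at an unadjusted p under 0.05). Other pathway genes risen numbered 3 without a filter and 3 without the intensity trend, against 6, and 0 to 6 when single pools were left out (limma, 8 to 11 at an unadjusted p under 0.05). All probe sets changed numbered 167 as reported, 96 without a filter, 32 without the intensity trend, 338 with the replicate block, 425 with array weights and 24 to 291 when single pools were left out. At an unadjusted p under 0.05 (limma) they numbered 1753 as reported and 1194 to 2175 when single pools were left out. The replicate block changed no call of an effector or of another pathway gene, with 5 and 6 risen. Fits that leave out a pool have fewer samples, and the no-filter fit tests more probe sets; other causes were not tested. Signals near the array floor, as for the interferons and the dimmer MX2 probe set, limit what can be read from them.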
